A study of Mus musculus with 27 samples.

Results

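Auranofin and TRi-1 are inhibitors of thioredoxin reductase, and the ovaries of mice given them were profiled beside those of untreated aged and young mice. The transcripts described here are the 6 genes of the thioredoxin system: the thioredoxin reductases Txnrd1, Txnrd2 and Txnrd3, the thioredoxins Txn1 and Txn2, and the thioredoxin-interacting protein gene Txnip. They were chosen by name, as the count table's Ensembl IDs that carry these symbols in the GENCODE M21 annotation of the mouse. All 6 were found, among 51789 gene IDs in all, and none of them had a count of 0 in any library. Experiment 1 held 4 aged mice given TRi-1, 4 untreated aged mice and 5 untreated young mice. Experiment 2 held 4 aged mice given auranofin, 5 untreated aged mice and 5 untreated young mice. The labels give each of the 27 ovary libraries a replicate number and do not say whether each is a separate mouse, so p-values measure the spread between these libraries, taken here as mice. Ages in months, strain, dose, route and length of treatment are not given in the sources used here, and no allele is named. Libraries were 3′ tag libraries of polyA RNA, so a count reports how many tags fell at the end of a gene's transcripts and says little about its isoforms.

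The thioredoxin system passes electrons from NADPH to oxidised proteins. A thioredoxin reductase uses NADPH to reduce thioredoxin, a small protein with a pair of cysteines, and thioredoxin then reduces disulfides in peroxiredoxins, ribonucleotide reductase and methionine sulfoxide reductases. Txnrd1 and Txn1 work in the cytosol and nucleus, Txnrd2 and Txn2 work in mitochondria, and Txnrd3 is best known from the testis. Txnip, an alpha-arrestin, binds reduced thioredoxin and restrains glucose uptake. TRi-1 was developed as an inhibitor selective for the cytosolic reductase, and auranofin is a gold compound that reacts with the selenocysteine of thioredoxin reductases. In mammals Txnrd1 is also a target gene of NRF2, the transcription factor that answers oxidants and electrophiles.

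The 3 reductases are selenoproteins: a TGA codon close to the end of each reading frame, which would otherwise stop translation, is read as selenocysteine. That codon is the residue these drugs reach, so the last 30 coding bases are shown for each gene, 5′ to 3′ on the gene's strand (GRCm38, GENCODE M21), with the TGA in capitals and the true stop at the end.
Txnrd1: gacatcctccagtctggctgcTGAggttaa
Txnrd2: gagcctactgtgactggttgcTGAggctaa
Txnrd3: gacattactcagaaaggctgcTGAggctag
In each of them the TGA is the third codon from the end, and the annotation marks it as selenocysteine. Txnrd2 also has annotated coding transcripts without such a codon, and tags at the 3′ end do not show which protein form they came from. The thioredoxins carry the cysteine pair that the reductase reduces, in a Cys-Gly-Pro-Cys motif whose codons are in capitals below, with 9 coding bases on each side.
Txn1: gctacgtggTGTGGACCTTGCaaaatgatc
Txn2: gcacagtggTGTGGCCCCTGCaagatccta
The motif starts at codon 32 of Txn1 and at codon 90 of Txn2.

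Library totals ran from 6460903 to 14814381 counts. Levels are given as CPM, the counts of each library scaled to a common total with TMM over all 27 libraries, and fold changes are on the log2 scale with standard errors. Tests are edgeR quasi-likelihood F tests over all genes with Benjamini-Hochberg adjusted p, and a gene is called at an adjusted p under 0.05. The labelled tissue was checked against marker lists, and the aged ovaries held few oocyte markers: the summed level of 12 oocyte markers was 8.04 to 22.1 CPM in untreated aged ovaries of experiment 1, against 135 to 255 CPM in young ones. The oocyte markers Zp2, Figla and Nobox and the granulosa markers Fshr and Amh were at 0 in all 4 of those aged libraries. Fshr and Amh did not pass the low count filter in any fit, so their zeros do not show a loss with age. With age in experiment 1, 9 of 10 tested oocyte markers and 6 of 8 granulosa markers were lower, and 9 of 10 macrophage and 12 of 12 lymphocyte markers were higher. In experiment 2, 6 of 8 oocyte and 2 of 8 granulosa markers were lower. There, 9 of 10 macrophage and 11 of 12 lymphocyte markers were higher. The shares of all genes were 16.4% lower and 18.5% higher in experiment 1, and 4.59% and 5.86% in experiment 2. The summed oocyte markers overlapped in experiment 2, at 6.01 to 12.2 CPM in untreated aged and 11.6 to 136 CPM in young ovaries. In whole ovaries, fewer cells of a type and less RNA per cell cannot be told apart, and the part of this change in the values below was not tested.

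Txnrd1, the cytosolic reductase, stood far higher in 3 of 4 auranofin-treated ovaries than in any other ovary of the series. By edgeR it was called higher in both treated aged groups against young mice, comparisons that combine age with treatment. Against untreated aged mice edgeR called it in neither treated group. Of the 6 genes it showed the largest fitted change under auranofin. Txnrd1 (ENSMUSG00000020250, chromosome 10, 82833951 to 82897712, plus strand, GRCm38) had 259, 231, 195 and 41.4 CPM in auranofin-treated aged ovaries, against 54.9, 39.8, 77.9, 33.2 and 37.0 CPM in untreated aged ovaries. The first 3 treated libraries lay above every untreated aged one, while treated replicate 4 lay within their range. The mean was 182 ± 97.2 CPM in treated and 48.5 ± 18.4 CPM in untreated aged ovaries (SD, n = 4 and 5), a ratio of means of 3.74. The fitted log2 change was 1.90 ± 0.50, with a 95% interval of 0.84 to 2.96, an unadjusted p of 0.00163 and an adjusted p of 0.413 by edgeR. It was thus not called, though its p ranked 59 among 16309 genes.

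Auranofin moved few genes past the threshold in this design, and for Txnrd1 the tools differed. In the comparison of auranofin-treated with untreated aged ovaries 0 of 6 thioredoxin system genes were called by edgeR, where 0.0184% of all genes were, which is 3 genes. At an unadjusted p under 0.05 edgeR counted 1 of the 6, Txnrd1, and 1148 of all genes. DESeq2 called Txnrd1 with 1.90 and an adjusted p of 0.0327, among 40 genes called higher and 36 lower, and limma-voom with sample quality weights called it with 2.22 and an adjusted p of 0.00620, among 21 higher and 12 lower. Without auranofin replicate 4, edgeR gave 2.23 ± 0.42 with an adjusted p of 0.119.

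The 3 called genes were Hmox1, Srxn1 and Gclm. Auranofin replicate 4 was the lowest treated library in Srxn1 and Gclm, as in Txnrd1, but not in Hmox1. Hmox1, the haem-degrading enzyme, had 1007, 430, 359 and 812 CPM in auranofin-treated ovaries, against 34.8 to 40.8 CPM in untreated aged ones. Replicate 4, with the second highest Hmox1, had the lowest Txnrd1 of its group. Srxn1, which repairs overoxidised peroxiredoxins, had 468, 368, 246 and 185 CPM in treated ovaries, against 44.4 to 63.9 CPM in untreated aged ones. Gclm, the modifier subunit of glutathione synthesis, had 142, 117, 111 and 60.9 CPM in treated ovaries, against 21.4 to 28.7 CPM in untreated aged ones. For these 3 genes, then, all 4 treated libraries lay above all 5 untreated aged ones. They were picked as the genes called in this same comparison, so this separation, and the contrast with Txnrd1, is a description and no added evidence. The summed level of 12 lymphocyte markers was highest in the treated library with the lowest Txnrd1: it was 92.2, 355 and 129 CPM in replicates 1 to 3 and 1048 CPM in replicate 4, against 474 to 1085 CPM in untreated aged ovaries. None of the 12 was at 0 in replicates 2, 3 and 4, and 1 was at 0 in replicate 1. The summed macrophage markers were 8043, 6424, 1391 and 10728 CPM in treated and 4194 to 8601 CPM in untreated aged ovaries. Replicate 4 lay above all untreated aged libraries also in the summed adipocyte markers, at 4510, 2936, 392 and 11313 CPM in treated and 364 to 2904 CPM in untreated aged ovaries, and in the neutrophil markers, at 2612, 2295, 1276 and 5796 CPM in treated and 415 to 4099 CPM in untreated aged ovaries. The part of these cells in the Txnrd1 values was not tested.

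**Figure D1:**
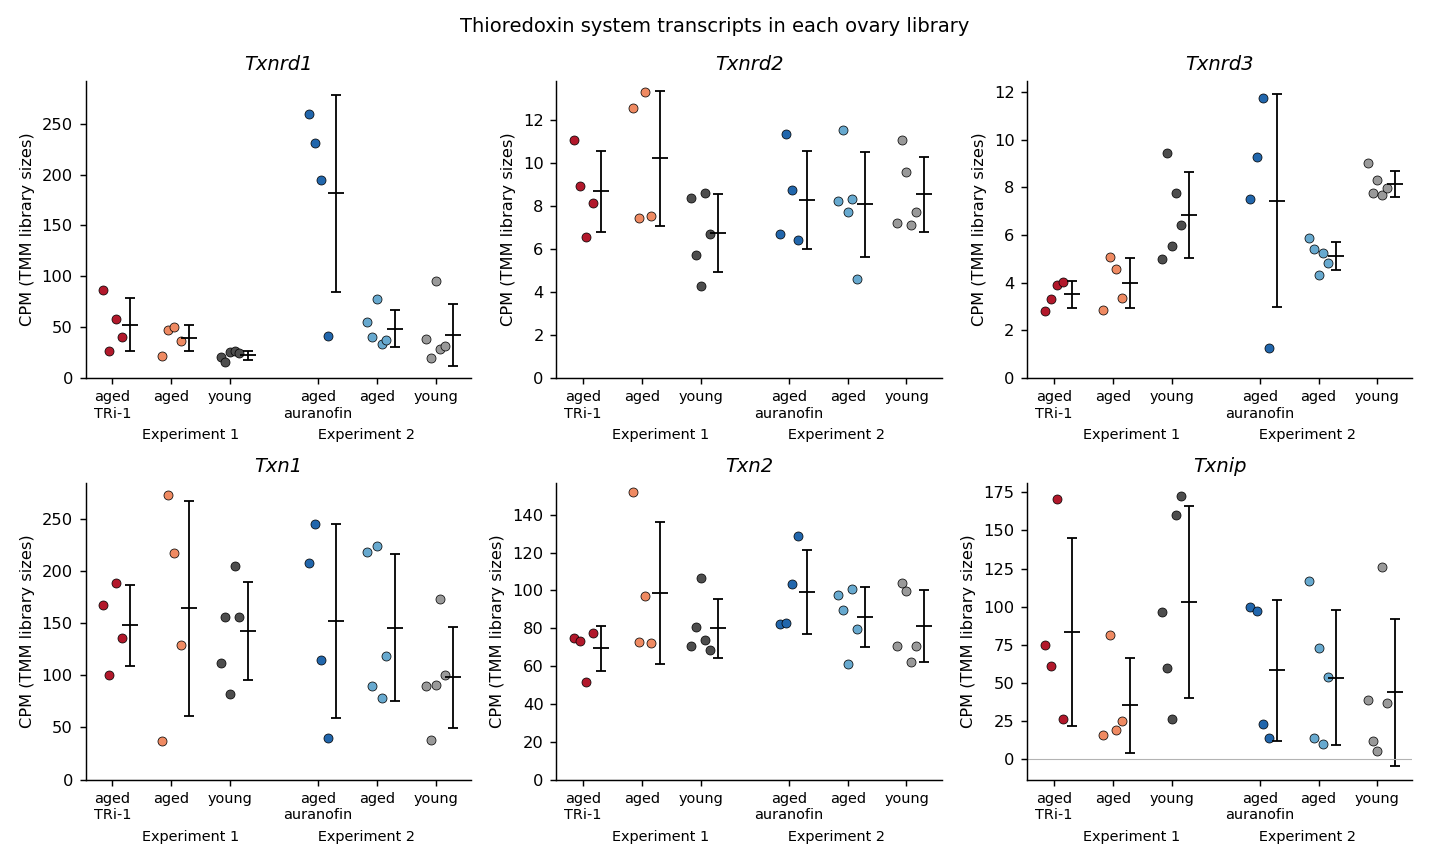
Level of each thioredoxin system gene in CPM in every library (points, replicates left to right), with the group mean and SD as bars, for aged mice given TRi-1, aged and young mice of experiment 1 and aged mice given auranofin, aged and young mice of experiment 2. Txnrd1 was at 195 to 259 CPM in 3 auranofin-treated ovaries and at 95.4 CPM or less in all other libraries, while Txnip ran from 5.36 to 172 CPM with all groups overlapping.

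TRi-1 did not move Txnrd1 past the threshold in aged ovaries. Txnrd1 had 86.1, 26.3, 57.5 and 39.8 CPM in TRi-1-treated aged ovaries, against 21.5, 47.4, 49.5 and 36.6 CPM in untreated aged ovaries. Treated replicates 1 and 3 lay above every untreated library and the groups overlapped. The fitted change was 0.41 ± 0.32 (interval -0.28 to 1.09) with an adjusted p of 0.571 by edgeR. Here edgeR called 0 of 6 thioredoxin system genes against 0.418% of all genes. By edgeR 1 of the 6, Txn2, had an unadjusted p under 0.05, as did 2650 of all genes. DESeq2 and limma-voom called 0 of the 6. The effect of auranofin minus that of TRi-1, each against its own untreated aged mice, was 1.47 ± 0.63 for Txnrd1 (interval 0.17 to 2.77), with an unadjusted p of 0.0283 and an adjusted p of 0.391. In that test of the difference edgeR called 0 of 6 against 0.0172% of all genes, with an unadjusted p under 0.05 for 2 of 6 (Txnrd1 and Txn2) and 1900 of all genes, and DESeq2 and limma-voom called 0 of the 6. Doses of the 2 drugs cannot be set side by side, since none is given in the sources used here.

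Set against young mice, both treated aged groups had more Txnrd1. In aged TRi-1-treated ovaries all 4 values lay above the young ones, which were 20.1, 15.8, 25.6, 26.1 and 24.3 CPM. How large a share of all genes separated like this is not given here. The change was 1.21 ± 0.31 with an adjusted p of 0.00999. Replicate 1, the highest treated library, decided the call: without it the change was 0.87 ± 0.29 with an adjusted p of 0.0603. In that comparison 2 of 6 thioredoxin system genes were called, Txnrd1 higher and Txnrd3 lower, against 21.0% of all genes, 10.9% higher and 10.1% lower. In auranofin-treated aged ovaries Txnrd1 was 2.09 ± 0.50 above young ones, which had 37.8, 19.8, 95.4, 28.1 and 31.0 CPM, with an adjusted p of 0.0161. Replicates 1 to 3 again lay above all young ones and replicate 4 did not. Without auranofin replicate 1 the change was 1.85 ± 0.53 with an adjusted p of 0.0583. Txnrd1 was the only called gene of the 6, against 8.98% of all genes, 5.42% higher and 3.56% lower. These comparisons share their treated libraries with the ones above, and they combine age with treatment. The age and drug comparisons of an experiment likewise share its untreated aged libraries.

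With age alone Txnrd1 was not called by edgeR in either experiment, and lay close to the threshold in experiment 1. It averaged 38.8 ± 12.8 CPM in aged and 22.4 ± 4.38 CPM in young ovaries of experiment 1 (SD, n = 4 and 5), and 3 of 4 aged libraries lay above all young ones. The change of 0.81 ± 0.31 had an adjusted p of 0.0520, and 0.0169 without aged replicate 1. DESeq2 and limma-voom called it in experiment 1, with adjusted p of 0.0479 and 0.0478, and it passed in 7 of 24 alternatives. In experiment 2 it averaged 48.5 ± 18.4 CPM in aged and 42.4 ± 30.3 CPM in young ovaries (SD, n = 5 each), and the change was 0.20 ± 0.47 with an adjusted p of 0.859. Young replicate 3, at 95.4 CPM, was the highest of all untreated libraries. That library also held few oocyte and luteal markers for a young ovary, at a sum of 11.6 and 72.3 CPM, where the medians of its group were 66.1 and 2999 CPM, and its part in the value was not tested. Without it the change in experiment 2 was 0.74 ± 0.42 with an adjusted p of 0.306. Over both experiments edgeR gave 0.49 ± 0.30 with an adjusted p of 0.211, and 0.76 with an adjusted p of 0.0297 without young replicate 3 of experiment 2, and limma-voom gave 0.66 with an adjusted p of 0.0364. Across the 6 groups the order of the mean levels ran, from high to low, aged with auranofin, aged with TRi-1, aged and young of experiment 2, aged and young of experiment 1, and every neighbouring pair in this order overlapped.

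A stretch of the Txnrd1 promoter is shown because it holds the core of an NRF2 element, TGACNNNGC, on the strand opposite to the gene, 92 to 84 bases before the start (RefSeq, GRCm38.p6, chr10:82859084-82859152, plus strand, match in capitals).
Txnrd1: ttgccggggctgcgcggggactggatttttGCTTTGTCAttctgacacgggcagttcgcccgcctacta
Promoters were read from 250 bases before to 50 bases after each start, on both strands. The 6 genes have 8 promoters in that table, 3 of them for Txnrd1, and 1 of the 8 held the core, as did 12.4% of 32851 promoters. A match is a string of letters in this window and not a measured site, and tags at the 3′ end cannot tell the Txnrd1 promoters apart.

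Txnrd2, the mitochondrial reductase, showed no called change in any comparison by edgeR. Txnrd2 (ENSMUSG00000075704, chromosome 16, 18426384 to 18479073, plus strand) had 6.67, 11.3, 8.72 and 6.40 CPM in auranofin-treated aged ovaries, against 8.21, 11.5, 7.72, 8.30 and 4.59 CPM in untreated aged ones. The groups overlapped throughout, and the change was 0.03 ± 0.30 (interval -0.61 to 0.68). It had 11.05, 8.93, 6.56 and 8.14 CPM in TRi-1-treated aged ovaries, against 12.6, 7.44, 13.3 and 7.54 CPM in untreated aged ones, a change of -0.25 ± 0.31. With age the value was 0.60 ± 0.29 in experiment 1 (adjusted p = 0.122) and -0.09 ± 0.29 in experiment 2 (adjusted p = 0.903). Young ovaries of experiment 1 were lowest on average, at 4.26 to 8.60 CPM. The gene rests on 23 to 177 counts a library, and a missing call here does not show that its level was unchanged.

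Log2 ratios of Txnrd1 to Txnrd2 counts, which do not depend on library size, averaged 4.20 ± 1.09 in auranofin-treated and 2.57 ± 0.66 in untreated aged ovaries (SD, n = 4 and 5). The difference of 1.63 had p = 0.0635 in a two-sided exact permutation test, where the smallest possible p was 0.0159, and an adjusted p of 0.254 over 8 ratio comparisons. The other 3 Txnrd1 to Txnrd2 comparisons differed by 0.16 to 0.58, with adjusted p from exact permutation tests of 0.584 to 0.798. All of these groups overlapped. With 8 ratio comparisons adjusted together and so few libraries, no single one could reach an adjusted p under 0.05 on its own, whatever its values.

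Txnrd3 was lower in aged than in young ovaries over both experiments, the only change with age that edgeR called among the 6 genes, and the call ended under several settings. Txnrd3 (ENSMUSG00000000811, chromosome 6, 89643988 to 89675529, plus strand) had 5.88, 5.41, 4.33, 5.23 and 4.83 CPM in aged ovaries of experiment 2, against 9.01, 7.76, 8.33, 7.67 and 7.98 CPM in young ones. All 5 aged values lay below all 5 young values. The share of all genes that separated in this way is not given here, so the separation is a description. In experiment 1 it had 2.83, 5.10, 4.58 and 3.35 CPM in aged ovaries, against 4.97, 9.44, 5.56, 7.76 and 6.41 CPM in young ones, and 3 of 4 aged libraries lay below all young ones. The fitted change was -0.66 ± 0.41 in experiment 2 (adjusted p = 0.367) and -0.76 ± 0.33 in experiment 1 (adjusted p = 0.0836). Over both experiments in 1 edgeR fit of all libraries it fell by 0.72 (SE 0.26, adjusted p = 0.0302). That was the only call among the 6, against 35.3% of all genes, 17.5% higher and 17.8% lower. A count of 1 in 6 does not exceed the share of all genes.

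Counts of Txnrd3 ran from 15 to 145 a library. The change over both experiments was -0.72 (adjusted p = 0.0590) with no low count filter, -0.73 (adjusted p = 0.0597) with a replicate block and -0.36 (adjusted p = 0.382) with the share of processed pseudogene counts as a covariate. Without aged replicate 1, aged replicate 4 or young replicate 2 of experiment 1 the change over both experiments was -0.69, -0.72 and -0.69, with adjusted p of 0.0577, 0.0521 and 0.0513. Within experiments, edgeR called 0 of 6 genes with age in experiment 1, against 34.9% of all genes (18.5% higher and 16.4% lower), and 0 of 6 in experiment 2, against 10.5% (5.86% higher and 4.59% lower). At an unadjusted p under 0.05 it counted 3 of 6 in experiment 1 (Txnrd1, Txnrd3 and Txnip) and 0 of 6 in experiment 2, beside 7100 and 3793 of all genes. DESeq2 called 1 and 0 of the 6, and limma-voom 2 and 0. The test of the difference between the age effects called 0 of 6 and 0 of 17484 genes by edgeR, with an unadjusted p under 0.05 for 0 of 6 and 2067 of all. DESeq2 and limma-voom called 0 of the 6 there as well, while DESeq2 called 95 genes higher and 77 lower and limma-voom 21 higher and 12 lower.

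Under the drugs Txnrd3 showed no call against untreated aged mice. It had 7.50, 9.27, 11.8 and 1.25 CPM in auranofin-treated aged ovaries, against 4.33 to 5.88 CPM in untreated aged ones. Replicates 1 to 3 lay above all untreated aged libraries and replicate 4 below all of them, as the lowest of the series. The change was 0.53 ± 0.43 with an adjusted p of 0.853. In TRi-1-treated aged ovaries it had 2.79, 3.31, 3.90 and 4.01 CPM, against 2.83 to 5.10 CPM in untreated aged ones, a change of -0.20 ± 0.35. All 4 TRi-1 values lay below the young range of 4.97 to 9.44 CPM, a separation whose share among all genes is not given here. Against young mice the change was -0.97 ± 0.33 with an adjusted p of 0.0491 by edgeR, close to the threshold. In fits that each left out 1 library the change ran from -1.07 to -0.83, and the call was lost in 11 of 13, all but those without young replicate 1 or untreated aged replicate 1. Without young replicate 2 it was -0.83 with an adjusted p of 0.126.

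**Figure D2:**
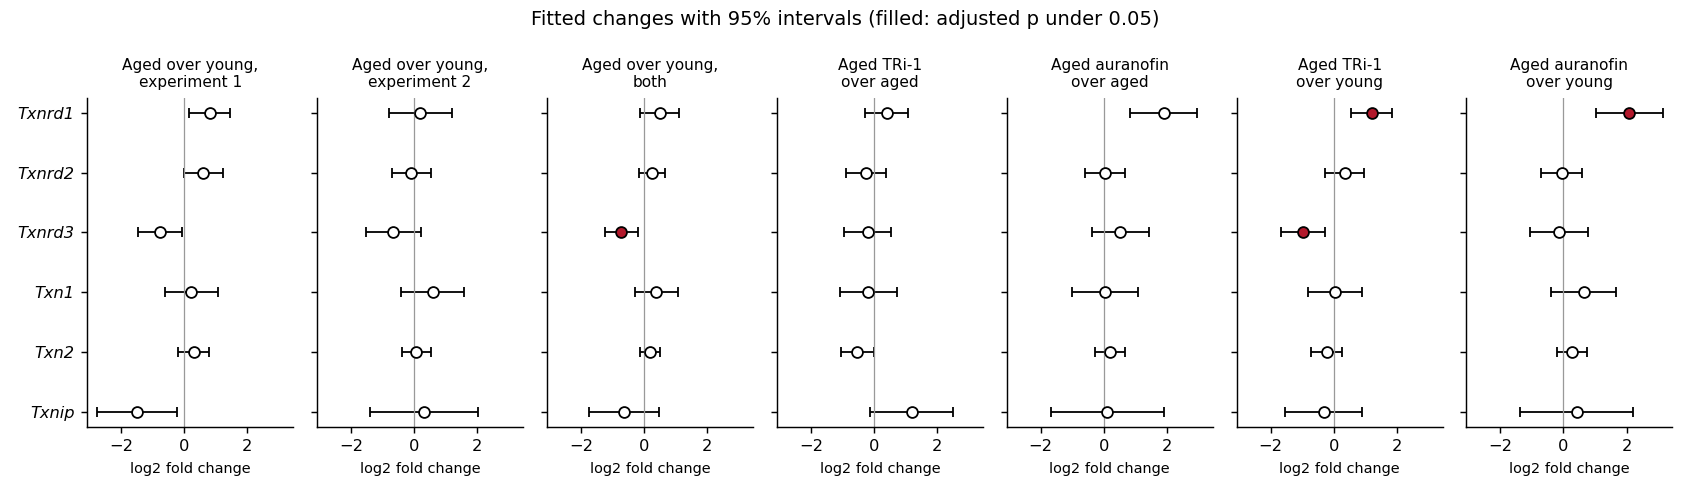
Fitted log2 fold changes of the 6 genes with 95% intervals in 7 comparisons, from edgeR, with filled points for an adjusted p under 0.05. Filled points are Txnrd1 in both comparisons of treated aged with young mice, Txnrd3 with age over both experiments and Txnrd3 in TRi-1-treated aged against young mice, and the widest intervals are those of Txnip.

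Txn1, the cytosolic thioredoxin, varied up to several fold within groups and differed between none of them by edgeR. Txn1 (ENSMUSG00000028367, chromosome 4, 57943373 to 57956411, minus strand) had 208, 246, 115 and 40.3 CPM in auranofin-treated aged ovaries, against 218, 89.6, 225, 78.2 and 119 CPM in untreated aged ones. It had 168, 100.1, 189 and 136 CPM in TRi-1-treated aged ovaries, against 36.8, 273, 218 and 130 CPM in untreated aged ones. The widest group was the aged one of experiment 1, and all groups overlapped. The changes were 0.05 ± 0.49 with auranofin, -0.18 ± 0.43 with TRi-1, 0.23 ± 0.40 with age in experiment 1 and 0.58 ± 0.47 with age in experiment 2. Young ovaries had 82.6 to 205 CPM in experiment 1 and 37.5 to 173 CPM in experiment 2. The processed pseudogene Txn-ps1 had no count.

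Txn2, the mitochondrial thioredoxin, showed no called change in any comparison by edgeR. Txn2 (ENSMUSG00000005354, chromosome 15, 77915047 to 77929006, minus strand) had 82.2, 82.7, 103 and 129 CPM in auranofin-treated aged ovaries, against 97.6, 89.7, 61.3, 101 and 79.8 CPM in untreated aged ones, a change of 0.19 ± 0.23. It had 74.7, 73.5, 51.4 and 77.7 CPM in TRi-1-treated aged ovaries, against 152, 72.6, 97.0 and 72.3 CPM in untreated aged ones. The groups overlapped, and the change was -0.52 ± 0.24 with an unadjusted p of 0.0480 and an adjusted p of 0.296. It rested in large part on aged replicate 1, the highest of all libraries, without which it was -0.24 ± 0.21, and was -0.36 ± 0.25 without TRi-1 replicate 3. Auranofin minus TRi-1 gave 0.72 ± 0.33 with an adjusted p of 0.424. With age the changes were 0.30 ± 0.23 in experiment 1 and 0.07 ± 0.21 in experiment 2.

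Txnip, the thioredoxin-binding arrestin, had the largest standard errors of the 6 genes in each comparison. None of its changes was called by edgeR at the settings of the report. Txnip (ENSMUSG00000038393, chromosome 3, 96557957 to 96561883, plus strand) had 15.9, 81.7, 19.3 and 24.98 CPM in aged ovaries of experiment 1, against 96.5, 60.1, 26.7, 160 and 172 CPM in young ones. Of the aged libraries 3 of 4 lay below all young ones, and replicate 2 lay among them. The change was -1.51 ± 0.60 (interval -2.78 to -0.24) with an adjusted p of 0.0605 by edgeR, and -2.34 ± 0.60 with an adjusted p of 0.00766 without aged replicate 2. It was called by limma-voom (-1.64, adjusted p = 0.0378) and by edgeR with no low count filter (-1.50, adjusted p = 0.0257). In this comparison Txnip passed the threshold in 6 of 24 alternatives, and its sign turned in 1. In experiment 2 it had 117, 13.9, 73.3, 9.83 and 54.2 CPM in aged ovaries, against 38.7, 12.3, 5.36, 126 and 37.2 CPM in young ones. These groups overlapped fully, and the change was 0.31 ± 0.80 with an adjusted p of 0.871, and 1.17 ± 0.79 with an adjusted p of 0.417 without young replicate 4. The age effect of experiment 2 minus that of experiment 1 was 1.83 ± 1.10, with an adjusted p of 0.532.

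Neither drug moved Txnip past the threshold. TRi-1-treated aged ovaries had 74.8, 60.9, 170 and 26.7 CPM, against 15.9 to 81.7 CPM in untreated aged ones, a ratio of means of 2.35. The change was 1.195 ± 0.616 with an adjusted p of 0.348, 0.61 ± 0.61 without TRi-1 replicate 3, and 2.03 ± 0.60 with an adjusted p of 0.105 without untreated aged replicate 2. Auranofin-treated aged ovaries had 99.8, 97.0, 23.4 and 14.0 CPM, within the 9.83 to 117 CPM of untreated aged ones, and the change was 0.11 ± 0.85. Log2 ratios of Txnip to Txn1 counts averaged -2.20 ± 0.98 in aged and -0.69 ± 0.77 in young ovaries of experiment 1 (SD, n = 4 and 5). The difference of -1.52 had p = 0.0635 in a two-sided exact permutation test and an adjusted p of 0.254. The other 3 Txnip to Txn1 comparisons differed by -0.11 to 1.11, with adjusted p from exact permutation tests of 0.381 to 0.905. As for the Txnrd1 to Txnrd2 ratios, no single comparison could pass the threshold on its own after adjustment. Gm15441 lies antisense over the end of Txnip with 154 counts in all, against 17890 for Txnip, and without a stated strand of counting reads of the pair cannot be told apart.

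The Txnip promoter is shown for a pair of CACGNG boxes 5 bases apart that resembles the element bound by Mondo factors, glucose-responsive activators of Txnip. It lies 85 to 69 bases before the start (RefSeq, GRCm38.p6, chr3:96557842-96557918, plus strand, match in capitals).
Txnip: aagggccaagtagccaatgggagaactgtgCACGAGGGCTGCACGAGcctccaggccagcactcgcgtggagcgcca
Both strands were searched, and the letters were written after the Txnip promoter had been read, so that its match is no evidence. The pair was in 1 of the 8 promoters of the 6 genes and in 0.0487% of 32851 promoters. The perfect E box CACGTG, which is 1 form of such a box, was in 0 of the 8 and in 7.15% of all.

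Txn1 and Txnip varied with a property of whole libraries, the share of counts on processed pseudogenes. In 5 of 6 groups the library with the lowest share had the lowest Txn1, and likewise in 5 of 6 groups the lowest Txnip, where 7.44% of 11340 genes had their lowest value there in 5 or more groups. Txn2 had its highest value in that library in 6 of 6 groups, as did 0.741% of these genes. Txnrd1 was lowest there in 4 of 6 groups, auranofin replicate 4 among them, where 15.3% of genes were lowest there in 4 or more. The share was 0.537% in auranofin replicate 4 and 0.741 to 1.10% in the other treated libraries, against 0.551 to 1.28% in untreated aged ones. It differed with age in experiment 1, at 0.715 ± 0.229% in aged and 1.69 ± 0.387% in young ovaries (SD, n = 4 and 5).

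Taking this share into the fit as a covariate, an alternative chosen after seeing the data, moved the fitted values of Txnip and Txn1. That of Txnrd1 under auranofin moved little. The Txnip change with age in experiment 1 was then 1.63 ± 0.56, positive in place of -1.51, and over both experiments 1.33 ± 0.42 with an adjusted p of 0.0150. Txn1 over both experiments was 1.30 ± 0.31 with an adjusted p of 0.00185, against 0.39 ± 0.33 without the covariate. Txnrd3 over both was -0.36 ± 0.30 and lost its call. For Txnrd1 under auranofin the value was 1.89 ± 0.51, where it was 1.90 ± 0.50 without, and edgeR called it in neither fit. Because the share itself differed between aged and young ovaries, age and the share cannot be told apart in experiment 1, and no direction with age is given here for Txnip or Txn1.

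**Figure D3:**
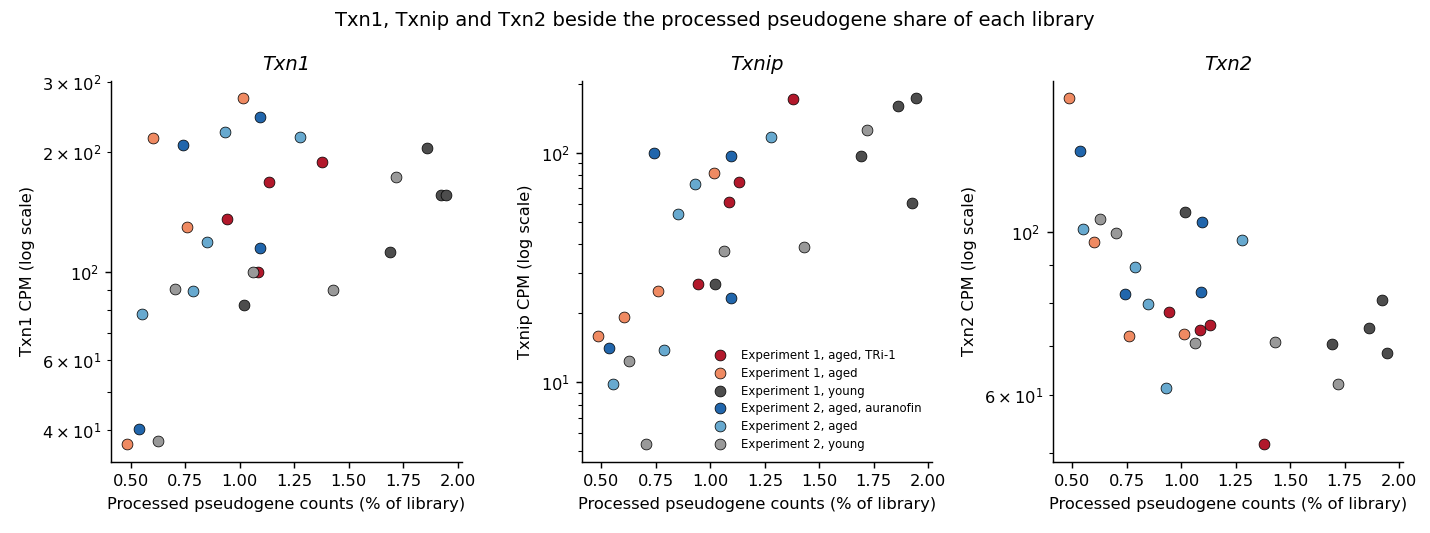
Level of Txn1, Txnip and Txn2 in CPM (log scale) against the share of a library's counts on processed pseudogenes (percent), 1 point per library, coloured by group. Libraries with a share near 0.5%, such as auranofin replicate 4 at 0.537%, had low Txn1 and Txnip and high Txn2 within their groups.

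A list of 19 NRF2 targets other than Txnrd1 was counted beside it, of which 18 were tested. Like the lists below, it was chosen with earlier results of these data known. Its counts and medians are thus a description and no evidence. With age in experiment 1, 8 of 18 were higher and 0 lower, where 18.5% of all genes were higher and 16.4% lower, and the median change was 0.82 (all genes 0.02). In experiment 2, 4 of 18 were higher and 0 lower, where 5.86% of all genes were higher and 4.59% lower, and the median was 0.67 (all genes -0.03). Those with the smallest p were the ferritin chain genes Ftl1 (2.03 ± 0.18) and Fth1 (1.64 ± 0.18) in experiment 1, and Hmox1 (1.87 ± 0.32) and Fth1 (1.98 ± 0.28) in experiment 2. Under auranofin 3 of 18 were higher and 0 lower, and these are the only 3 genes edgeR called there (0.0184% of all genes). The median change of the list was 1.24 where that of all genes was 0.02, and Hmox1 (4.12 ± 0.36) and Srxn1 (2.42 ± 0.28) had the smallest p. DESeq2 called 7 and limma-voom 6 of the 18 there, all higher, beside the counts of all genes given above for these tools. Under TRi-1 edgeR called 0 of 18, where it called 0.418% of all genes, and 6 of the 18 had an unadjusted p under 0.05. DESeq2 called 1, lower, and limma-voom 0, and the median change was 0.22. Against young mice 12 of 18 were higher with auranofin and 9 of 18 with TRi-1, where 5.42% and 10.9% of all genes were higher. Auranofin minus TRi-1 called 2 of 18, both higher, Hmox1 (4.81 ± 0.54) and Srxn1 (2.62 ± 0.46), where 0.0172% of all genes were called.

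**Figure D4:**
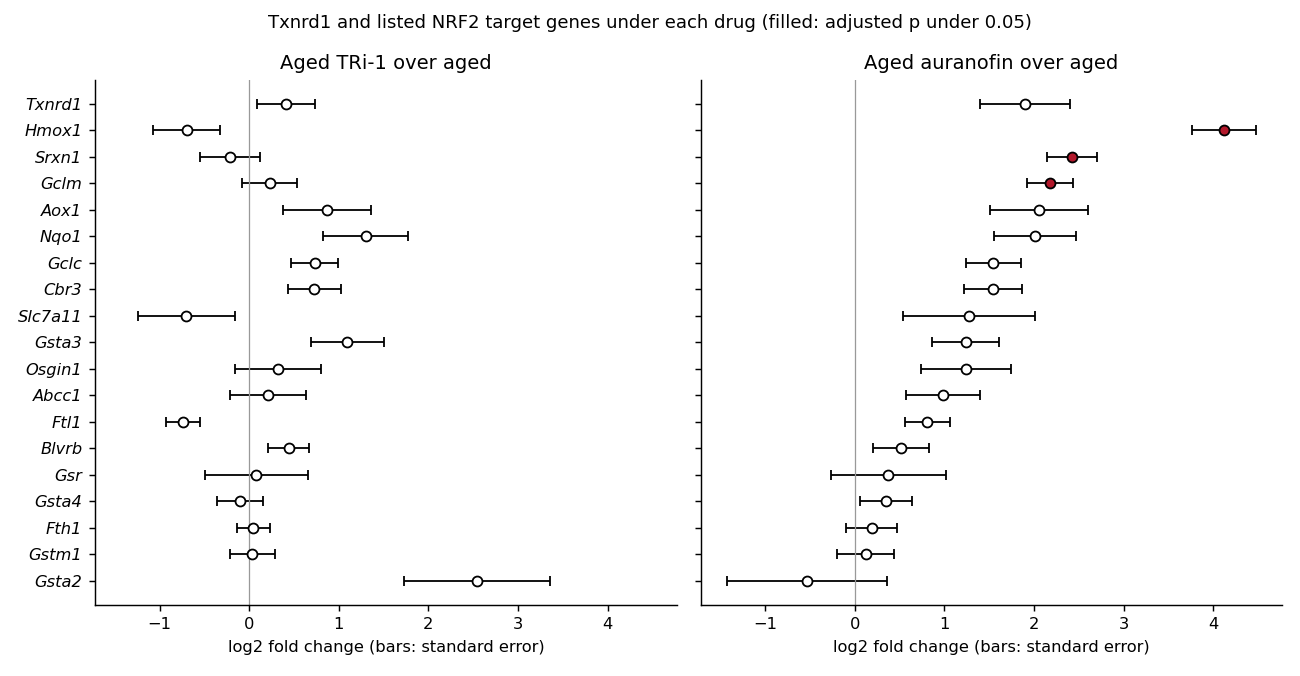
Fitted log2 fold changes with standard errors of Txnrd1 and 18 listed NRF2 targets in aged mice given TRi-1 (left) and given auranofin (right), each over untreated aged mice, with filled points for an adjusted p under 0.05. Under auranofin Hmox1, Srxn1 and Gclm are filled and Txnrd1 lies at 1.90 among genes of like size, while under TRi-1 no point is filled.

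Of the 8 genes of NRF2 and its regulators, 4 were higher and 2 lower with age in experiment 1, and 1 was higher and 0 lower in experiment 2. Of all genes, 18.5% were higher and 16.4% lower in experiment 1, and 5.86% and 4.59% in experiment 2. Sqstm1, which frees NRF2 from its inhibitor, changed by 1.27 ± 0.16 and Bach1, a repressor of NRF2 targets, by 1.36 ± 0.24 in experiment 1, and the small Maf gene Maff by 2.28 ± 0.37 in experiment 2. Under auranofin edgeR called 0 of 8, with an unadjusted p under 0.05 for 4, DESeq2 called 1 and limma-voom 0. Under TRi-1 all 3 tools called 0 of 8, and edgeR had 1 at an unadjusted p under 0.05. Of all genes, edgeR called 0.0184% under auranofin and 0.418% under TRi-1, and the counts at an unadjusted p under 0.05 stand above.

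Partners of thioredoxin were called in both directions with age, at shares to be read against the 34.9% of all genes called in experiment 1 and 10.5% in experiment 2. Of 13 genes listed as encoding partners of thioredoxin, 2 were higher and 5 lower in experiment 1. Among them were the gene of Prdx4, a peroxiredoxin of the endoplasmic reticulum (-1.71 ± 0.21), and that of the methionine sulfoxide reductase Msrb1, itself a selenoprotein (1.43 ± 0.19). In experiment 2 only Msrb1 of the 13 was called (0.82 ± 0.22). Of 20 tested thioredoxin-fold and glutaredoxin genes, 3 were higher and 4 lower in experiment 1, with the smallest p for nucleoredoxin, Nxn (1.21 ± 0.22), and the membrane protein Tmx4 (-1.14 ± 0.15). In experiment 2, 2 of the 20 were higher and 0 lower, Txndc5 (1.28 ± 0.33) and Txndc11 (1.03 ± 0.23). Of 10 selenocysteine incorporation genes, 2 were higher and 3 lower in experiment 1, with the smallest p for the selenocysteine lyase Scly (1.71 ± 0.29) and the binding protein Secisbp2 (-1.08 ± 0.29). In experiment 2 edgeR called 0 of the 10, with 1 at an unadjusted p under 0.05, DESeq2 called 0 and limma-voom 1.

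Of 7 tested alpha-arrestin and Mondo factor genes, relatives and activators of Txnip, Arrdc1 was higher (1.08 ± 0.28) and Arrdc3 lower (-1.68 ± 0.36) with age in experiment 1. In experiment 2 all 3 tools called 0 of the 7, and edgeR had 0 at an unadjusted p under 0.05. Of 8 genes that supply NADPH, the cofactor of thioredoxin reductases, 2 were higher and 2 lower in experiment 1, among them the pentose phosphate enzyme Pgd (1.17 ± 0.20) and the mitochondrial transhydrogenase Nnt (-1.06 ± 0.22). The 2 of 7 and 4 of 8 genes called in these lists stand beside 34.9% of all genes in experiment 1. In experiment 2 Nnt alone was called (-1.57 ± 0.24). Under auranofin, these 5 lists had 0 called genes by edgeR, DESeq2 and limma-voom alike, and 0 to 2 genes each at an unadjusted p under 0.05. Under TRi-1 edgeR and limma-voom called 0 of them, DESeq2 called 1 thioredoxin substrate, lower, and 0 to 4 genes a list had an unadjusted p under 0.05. The edgeR shares of all genes called were 0.0184% under auranofin and 0.418% under TRi-1.

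The transcripts most like Txnrd1 over the 27 libraries were Mafg, Abcc1 and Vmp1. Likeness is the mean absolute difference of standardised log2 CPM, in SD units, over 11339 genes that averaged 5 CPM or more. It was 0.301 for Mafg, a small Maf protein that pairs with NRF2, 0.379 for Abcc1, an exporter of glutathione conjugates, and 0.387 for Vmp1, an autophagy gene, where the median gene was at 1.08. Abcc1 had 42.5, 42.3, 41.0 and 6.48 CPM in auranofin-treated ovaries, against 9.56 to 22.4 CPM in untreated aged ones. Mafg had 65.9, 61.5, 62.8 and 34.1 CPM in treated ovaries, against 28.0 to 46.4 CPM in untreated aged ones. Vmp1 had 520, 504, 524 and 155 CPM in treated ovaries, against 161 to 366 CPM in untreated aged ones. These genes were picked for their likeness over all libraries, auranofin ones included, so a shared order of replicates 1 to 3 over replicate 4 follows from the choice and is a description.

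**Figure D5:**
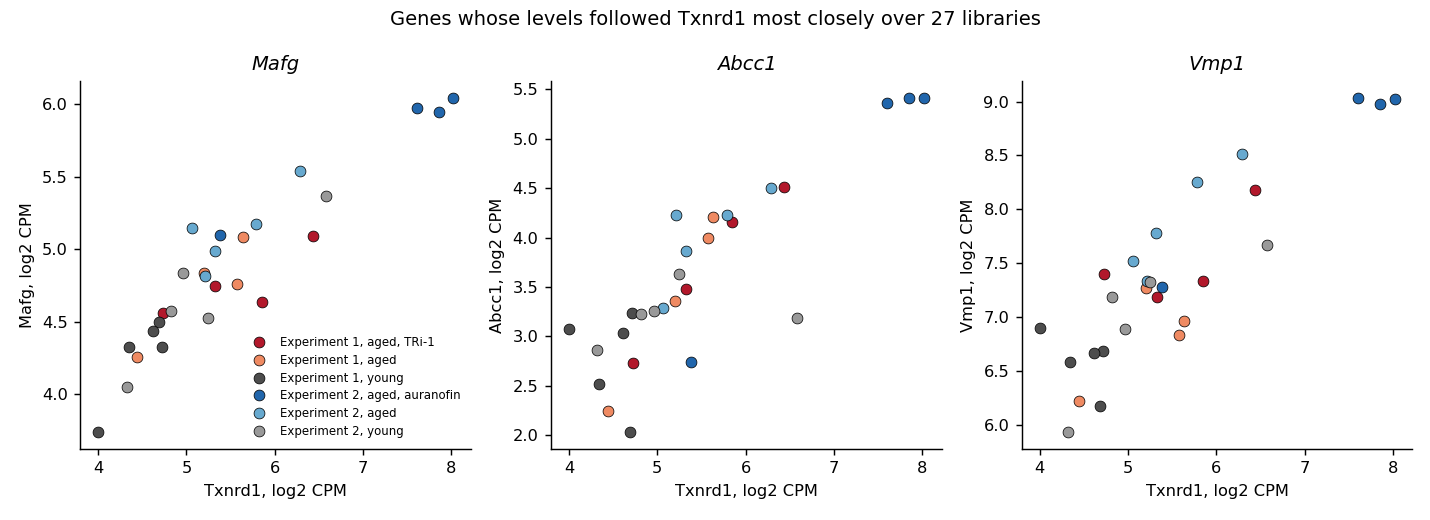
Log2 CPM of Mafg, Abcc1 and Vmp1 against log2 CPM of Txnrd1, 1 point per library, coloured by group. Auranofin replicates 1 to 3 form the top right of each panel, and auranofin replicate 4 lies among the other libraries.

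For the other genes the closest transcripts were, for Txnrd2, Shisa4, Rrp9 and Tstd2, the nearest at 0.609 SD, and for Txnrd3, Paip1, Slc25a4 and Bzw2, the nearest at 0.460 SD. Txn1 was closest to Cstb at 0.269 SD, a cystatin gene with 27.02 CPM in auranofin replicate 4 and 88.4 to 227 CPM in the other treated libraries. Txn2 was closest to Otub1, Psmd13 and Znhit1, the nearest at 0.377 SD. Txnip was closest to Fam216a at 0.357 SD and to the processed pseudogenes Rpl28-ps1 and Rps16-ps2 at 0.362 and 0.374 SD. The median gene stood at 1.08 to 1.14 SD from each of the 6 genes.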

How the data were processed

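RNA was taken from ovaries and made into Lexogen QuantSeq libraries, per the labels' protocols. The authors deposited 1 table of whole-number counts per gene for the 27 libraries, not scaled, with 0 columns of other samples. RSEM 1.2.3, DESeq2 and mm10 appear, without a role, in the submitters' processing notes. Annotation and strand of counting are not given in the sources used here. GENCODE M21 (GRCm38) gave 51596 of 51789 IDs a symbol.

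Gene tests were quasi-likelihood F tests of edgeR 4.0.16 under R 4.3.3, after filterByExpr and TMM, with Benjamini-Hochberg adjustment over all genes tested and a threshold of 0.05. Each experiment was fitted with its 3 groups together. All 27 libraries entered a joint model for age over both experiments and for differences between effects. Standard errors are the log2 change over the square root of F. Log2 CPM used a prior count of 2, and ratios added 0.5 to each count. Exact permutation tests used scipy 1.17.1. The tests were checked on simulated counts. The 6 genes and all lists were chosen with earlier results of these data known. By rule the text names all 6 genes, the 2 list members with the smallest p in each comparison within an experiment where called, and the 3 most alike transcripts. Gclm, the marker genes at 0 and the genes of the drug difference fall outside this rule, and so does the paired box of Txnip: they were picked once their values or letters were known.

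The alternatives tried were DESeq2 1.42.0, limma-voom (limma 3.58.1) with quality weights, size factors by RLE, no filter, a mean of at least 5 CPM, no haemoglobin genes, only the groups compared, all libraries in 1 fit, a replicate block, each library left out, and 3 libraries that stand apart left out. The processed pseudogene share as a covariate was added after seeing the data. Libraries of a group all differed beyond counting noise.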

Additional observations from a re-analysis of the deposited data

Results flagged for a closer look

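In 4 cases 1 library of a group stood far from the others by Dixon's criterion, out of 48 groups of values tested, where chance gives about 5%. Txnrd1 was at 95.4 CPM in young replicate 3 of experiment 2, the highest of its group. Txn2 was at 51.4 CPM in TRi-1 replicate 3, the lowest of its group. Txnip was at 81.7 CPM in untreated aged replicate 2 of experiment 1 and at 126 CPM in young replicate 4 of experiment 2, each the highest of its group. Values without these libraries stand in the paragraphs on Txnrd1, Txn2 and Txnip, and the cause was not tested.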

How the results depend on the processing

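The count of called genes among the 6 moved as follows. With age in experiment 1 it was 0, and 1 by DESeq2, 2 by limma-voom, 2 with no low count filter, 1 with the pseudogene share as covariate and 1 with only the groups compared, and 0 to 1 without 1 library. With age over both experiments it was 1, and 2 by limma-voom, 0 with no filter, 0 with a replicate block, 2 with the covariate and 0 to 2 without 1 library. For TRi-1-treated aged against young mice it was 2, and 1 with no filter, at a mean of at least 5 CPM (where Txnrd3 dropped out), with a replicate block or with only the groups compared, 0 without 3 libraries that stand apart or in the fit of all 27, and 0 to 2 without 1 library. Under auranofin in aged mice it was 0, and 1 by DESeq2 and by limma-voom. For auranofin-treated aged against young mice it was 1, 0 with only the groups compared, and 0 to 1 without 1 library. The cause was not tested.

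With the pseudogene share as covariate these log2 changes turned sign: over both experiments Txn2 to -0.20 and Txnip to 1.33; with age in experiment 1 Txn2 to -0.79 and Txnip to 1.63; for the age difference Txnrd3 to -0.36, Txn1 to -0.78, Txn2 to 0.34 and Txnip to -0.28; under TRi-1 Txn2 to 0.11 and Txnip to -0.56; against young mice with TRi-1 Txnip to 1.07; and for auranofin minus TRi-1 Txnip to 1.07. By limma-voom the age difference of Txn2 was 0.0273, age in experiment 2 gave 0.0228 for Txnrd2 and -0.23 for Txnip, and auranofin against young gave 0.10 for Txnrd2. With a replicate block Txn1 under TRi-1 was 0.0161 and Txnrd2 under auranofin -0.0708. Without the 3 libraries that stand apart Txnrd3 under TRi-1 was 0.0087. None of the changes that turned sign was called at the settings of the report.

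Leaving out 1 library turned the sign of the following, none of them called. Under auranofin in aged mice they were -0.26 to 0.37 for Txn1, -0.28 to 0.63 for Txnip and -0.15 to 0.19 for Txnrd2. Against young mice with auranofin they were -0.00494 to 1.28 for Txnip, -0.26 to 0.0359 for Txnrd2 and -0.47 to 0.20 for Txnrd3. With TRi-1 Txn1 ran from -0.51 to 0.19 in aged mice and -0.0903 to 0.21 against young. With age Txn1 ran from -0.14 to 0.56 in experiment 1, and in experiment 2 Txn2 ran from -0.0388 to 0.18, Txnip from -0.20 to 1.17, Txnrd1 from -0.0323 to 0.74, Txnrd2 from -0.27 to 0.0585 and the Txnip to Txn1 ratio from -0.69 to 0.21. The Txnrd1 to Txnrd2 ratio with age in experiment 1 ran from -0.0950 to 0.53. The age difference ran from -0.34 to 0.0792 for Txn2 and -0.00403 to 0.30 for Txnrd3, and auranofin minus TRi-1 from -0.21 to 0.52 for Txn1.

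The labels do not say whether replicate numbers pair the samples. Correlations of same-numbered deviations ran from -0.32 to 0.61 and cannot settle it. Counts were lowest for Txnrd2 and Txnrd3, with 23 to 177 and 15 to 145 a library, and whether depth sets their errors was not tested. RLE size factors and leaving out haemoglobin genes changed no count of called genes among the 6.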
